A study of Mus musculus with 4 samples.

Results

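LIM-homeobox transcription factors and their LDB cofactors were examined in RNA sequencing data of sorted embryonic mouse forebrain cells with and without *Dnmt1*. The 10 genes were taken by symbol: 7 LIM-homeobox genes (*Isl1*, *Lhx1*, *Lhx2*, *Lhx5*, *Lhx6*, *Lhx8* and *Lhx9*), the LIM-only gene *Lmo4*, and the cofactor genes *Ldb1* and *Ldb2*. All 10 were found by their GENCODE identifiers among the 55573 genes of the count lists. The cells were tdTomato-positive cells enriched by FACS at embryonic day 16, with the day of insemination taken as the first embryonic day. The sample labels give the basal telencephalon as the dissected region, whereas the study describes the cells as coming from the preoptic area (POA) within it. WT animals were *Hmx3-Cre/tdTomato/Dnmt1* wild type, and KO animals carried *Dnmt1* alleles with loxP sites (loxP2) in the same *Hmx3-Cre/tdTomato* setting on a C57BL/6J background. Cre and the reporter were thus present in both genotypes, and *Dnmt1* was deleted only in cells that express, or descend from cells that expressed, *Hmx3*. Each genotype had 2 libraries, made from cells pooled from 12 WT and 6 KO embryos. The labels call them biological replicates and the study calls them technical duplicates of pools, so that SDs and p-values describe the spread between libraries, which may be technical.

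LIM-homeobox proteins carry a pair of zinc-binding LIM domains ahead of a DNA-binding homeodomain. The LIM domains are contacted by LDB proteins, which dimerize and so join LIM-homeobox factors into active complexes on DNA. LIM-only proteins such as LMO4 have LIM domains without a homeodomain and compete for the same LDB contacts. In the ventral forebrain, LHX6 and LHX8 are known for specifying cortical interneurons and cholinergic neurons, ISL1 for striatal projection and cholinergic neurons, and LHX1 for the migration and survival of POA-derived interneurons.

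The libraries held between 8075102 and 9995968 counts, and 3 counts correspond to 0.294 to 0.372 CPM (counts scaled by library size and TMM factors). *Dnmt1* itself, of which only a pair of exons is deleted, had 385 and 447 CPM in WT and 283 and 281 CPM in KO. Its log2 fold change, KO minus WT (log2FC), was -0.56, and the adjusted p of 0.0511 from edgeR missed the threshold of 0.05. With DESeq2 it passed (-0.577, adjusted p = 0.00538), and with libraries scaled to the pan-neuronal genes it was -0.08 (edgeR adjusted p = 0.7098). *Hmx3*, the gene that drives Cre, was present in both genotypes with 84.3 ± 8.11 CPM in WT and 82.8 ± 15.5 CPM in KO (SD, n = 2), and so were the GABAergic genes *Gad1* and *Gad2*. Markers of other cells moved with the genotype. The 10 astrocyte markers summed to between 186 and 207 CPM in WT and between 3234 and 3388 CPM in KO, and all 10 rose (*Gfap* was at 0 counts in WT). Of the oligodendrocyte markers 6 of 10 rose (1160 to 1228 CPM summed in WT, 1870 and 1871 CPM in KO), and of the mural cell markers 6 of 8 rose (310 to 327 CPM in WT, 681 to 736 CPM in KO, with *Acta2* at 0 counts in WT). The 15 pan-neuronal genes summed to between 6959 and 7483 CPM in WT and to 5114 and 5149 CPM in KO. The part of these shifts in the values below was not tested, and in such bulk samples fewer cells of a type and less RNA per cell cannot be told apart. WT replicate 1 had 8.66% of its counts on mitochondrial rRNA, against 1.51% to 2.31% in the other libraries.

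Of the 10 LIM-homeobox, LIM-only and LDB genes, 1 differed between genotypes at an edgeR adjusted p under 0.05, and this was *Isl1*, which was lower in KO. Over all 16832 genes tested, 7.90% were called, 7.33% as higher and 0.570% as lower in KO. None of the 10 was called higher (edgeR quasi-likelihood test, DESeq2 and limma-voom each gave 0), and *Lhx2* alone was higher at an unadjusted p under 0.05. In total 4 of the 10 had an unadjusted p under 0.05, against 22.7% of all genes. In CPM, genotypes did not overlap for 6 of the 10 genes, against 53.5% of all genes. KO was the higher genotype for 2 of them, *Lhx2* and *Lhx8* (28.3% of all genes), and the lower for 4, *Isl1*, *Lhx5*, *Lmo4* and *Ldb2* (25.2% of all genes). The log2FC was above 0 for 3 of the 10, against 47.6% of all genes, and its median was -0.30 over the 10 and -0.03 over all.

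**Figure D1:**
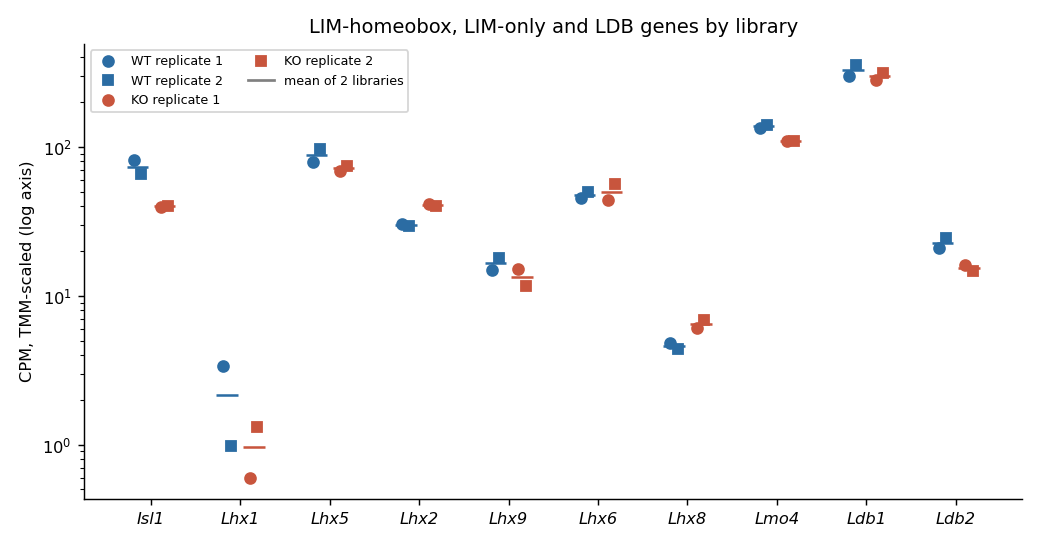
Each point gives the level of a gene in a library in TMM-scaled CPM on a log axis, with blue for WT, red for KO, and lines for the means of 2 libraries. Circles are replicate 1 and squares replicate 2 of each genotype. *Isl1* separates by genotype, with KO libraries at 39.6 and 40.1 CPM below WT libraries at 81.1 and 66.1 CPM, while the 4 points of *Lhx1* spread from 0.594 to 3.35 CPM and overlap.

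*Isl1* (ENSMUSG00000042258) encodes the LIM-homeodomain protein ISL1 and occupies bases 116298281 to 116309689 of chromosome 13 (GRCm38, minus strand). The WT libraries held 653 and 675 counts of it, the KO libraries 333 and 364. These correspond to 81.1 and 66.1 CPM in WT and to 39.6 and 40.1 CPM in KO. The KO libraries were almost equal to each other, and both stayed well below the lower WT library. *Isl1* fell to 0.542 of its WT level (95% interval 0.418 to 0.702), from 73.6 ± 10.6 CPM in WT to 39.8 ± 0.353 CPM in KO (SD, n = 2). The log2FC was -0.88 with a standard error of 0.16, and the edgeR p adjusted over 16832 genes was 0.0126. When KO replicate 1 or KO replicate 2 was left out, the change of *Isl1* was -0.86 and -0.89 on the log2 scale and the adjusted p was 0.0959 and 0.0763. In these fits the lone KO library is assumed to vary like the WT libraries, and in fits without a WT library the spread comes from the KO libraries alone, which lay closer together than the WT libraries (chi-square per degree of freedom 3.54 against 39.8). When the libraries were scaled so that the pan-neuronal genes were level, which moves the median of all genes by 0.481, the change of *Isl1* was -0.40 (edgeR adjusted p = 0.1004).

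Striatal projection neurons are among the cells in which ISL1 acts. The summed level of the 7 markers was 212 to 219 CPM in WT and 157 to 170 CPM in KO. Of the 6 tested, *Ppp1r1b*, which encodes the phosphatase regulator DARPP-32, rose in the edgeR test (log2FC 1.74, adjusted p = 0.0255), and none was called lower. The striatal factors *Bcl11b* (log2FC -0.52, edgeR adjusted p = 0.0663) and *Foxp1* (-0.47, 0.167) and the neuropeptide gene *Tac1* (-1.84, 0.175) had KO libraries below WT libraries, and 4 of the 6 had an unadjusted p under 0.05. DESeq2 called 1 gene of this list, as lower, and did not call *Ppp1r1b*. The median log2FC of the list was -0.22, or 0.26 with the pan-neuronal scaling. After correcting for exonic length and GC, 1 was called higher and 1 lower. The pallial glutamatergic markers, which belong to excitatory neurons of the cortex and not to the labelled interneurons, summed to 385 and 390 CPM in WT and to 197 and 223 CPM in KO. Of these 6 genes, *Neurod6* (log2FC -1.38) and *Neurod2* (-0.76) fell, and all 6 had KO libraries below WT libraries. Their median was -0.72, or -0.24 with the pan-neuronal scaling, under which 1 of the 6 was called lower (0.196% of all genes). The part of the lower pallial markers in the value of *Isl1* was not tested.

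The 250 bases before the annotated start of *Isl1* are shown because *Isl1* is the gene of this family that differed, and because the CG dinucleotide is the site that DNMT1 methylates. The stretch lies at chr13:116309689-116309938 of GRCm38 on the minus strand, is taken from RefSeq, and is written from 5′ to 3′ with each CG in capitals.
Isl1 promoter: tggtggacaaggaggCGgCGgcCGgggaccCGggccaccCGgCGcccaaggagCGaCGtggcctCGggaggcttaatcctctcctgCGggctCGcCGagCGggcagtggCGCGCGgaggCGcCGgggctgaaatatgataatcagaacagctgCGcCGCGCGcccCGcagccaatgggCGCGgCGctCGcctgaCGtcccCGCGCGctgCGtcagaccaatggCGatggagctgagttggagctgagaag
It holds 33 CG dinucleotides. DNA methylation was not measured in these libraries, so that the sequence gives the possible sites and not their state.

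*Lhx1* (ENSMUSG00000018698), the gene whose control by DNMT1 the study asks about, occupies bases 84518284 to 84525535 of chromosome 11, also on the minus strand. It was the least abundant of the 10 genes. WT replicate 1 had 27 counts (95% Poisson interval 17.8 to 39.3), WT replicate 2 had 10 (4.80 to 18.4), KO replicate 1 had 5 (1.62 to 11.7) and KO replicate 2 had 12 (6.20 to 21). These intervals cover counting error only. On the CPM scale the WT libraries had 3.35 and 0.980 and the KO libraries 0.594 and 1.32. WT replicate 1 stood above the other 3 libraries, and WT replicate 2 lay between the KO libraries. Its log2FC of -1.13 had a standard error of 0.76 and a 95% interval from -2.89 to 0.63 (edgeR adjusted p = 0.422). Without WT replicate 1 it was -0.03 (edgeR adjusted p = 0.988), without WT replicate 2 it was -1.79 (0.0775), without KO replicate 1 it was -0.67 (0.891) and without KO replicate 2 it was -1.81 (0.722). On the CPM scale the counting intervals of the WT libraries, 2.21 to 4.88 and 0.47 to 1.8, did not overlap, so that they differed by more than counting error. A difference of *Lhx1* between genotypes was not detectable in these 4 libraries. The study reported a strong rise of *Lhx1* in sorted *Dnmt1*-deficient cells of the same embryonic day, and a rise in a cell line after *Dnmt1* siRNA. In these libraries the estimate was below 0, with a 95% interval that included 0. The divergent gene *Lhx1os*, which starts 125 bases from *Lhx1* on the other strand and was looked up after the values of *Lhx1* were seen, was at 3 and 6 counts in the WT libraries and at 2 and 1 in the KO libraries.

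The 250 bases before the start of *Lhx1*, at chr11:84525535-84525784 of GRCm38 on the minus strand, are shown in the same way, as the promoter of the gene that the study follows.
Lhx1 promoter: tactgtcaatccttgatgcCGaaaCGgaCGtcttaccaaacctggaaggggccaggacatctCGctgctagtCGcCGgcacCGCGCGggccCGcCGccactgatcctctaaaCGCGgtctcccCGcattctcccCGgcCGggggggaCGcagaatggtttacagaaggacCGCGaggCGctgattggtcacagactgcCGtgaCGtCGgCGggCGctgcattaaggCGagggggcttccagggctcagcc
This stretch holds 26 CG dinucleotides and overlaps the start of *Lhx1os*.

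*Lhx5* (ENSMUSG00000029595, chromosome 5, 120431699 to 120441223) encodes the closest paralogue of LHX1, a factor of forebrain patterning and of Cajal-Retzius cells. It had 79.1 and 97.4 CPM in WT and 68.7 and 74.8 CPM in KO. KO was the lower genotype without overlap, by a margin smaller than the gap between the WT libraries. The log2FC of *Lhx5* was -0.30 with a standard error of 0.16 (95% interval -0.67 to 0.07, edgeR adjusted p = 0.315). It was -0.45 without WT replicate 1 (edgeR adjusted p = 0.0275, with the spread from the KO libraries alone), -0.15 without WT replicate 2 (adjusted p = 0.557), -0.40 after correcting for exonic length and GC (adjusted p = 0.0259), and 0.18 when scaled to the pan-neuronal genes (adjusted p = 0.4395). The antisense gene *Gm27199* covers 2.57% of its exonic bases.

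*Lhx2* (ENSMUSG00000000247, chromosome 2, 38339281 to 38369733) encodes a factor known for cortical and hypothalamic progenitors. Its level was 30.3 and 29.5 CPM in WT and 41.5 and 39.9 CPM in KO, so that the libraries of each genotype nearly coincided. The KO libraries were the higher ones and the groups did not overlap. The fold was 1.36 (95% interval 1.05 to 1.76), a log2FC of 0.44 (standard error 0.16) that did not pass over all genes (edgeR adjusted p = 0.147, unadjusted p = 0.0238). With the pan-neuronal scaling it was 0.93 (edgeR adjusted p = 0.00451), which is past the threshold. That scaling moves the median of all genes by 0.481, and 25.6% of all genes were then called higher. Markers of radial glia, progenitors that express LHX2, moved with *Lhx2*. Their sum was 1033 and 1041 CPM in WT and 1645 and 1759 CPM in KO, 7 of the 8 markers had KO libraries above WT libraries, and *Hes1* and *Slc1a3* rose. *Sox2* was the exception, with 208 ± 30.2 CPM in WT and 170 ± 5.31 CPM in KO (SD, n = 2). Most of the difference in the sum came from *Slc1a3*, a glutamate transporter gene that astrocytes also express. Without it, a choice made after the values were seen, the other 7 markers summed to 963 and 964 CPM in WT and to 1166 and 1099 CPM in KO. The part of these cells in the level of *Lhx2* was not tested.

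The sequence before the first annotated start of *Lhx2*, at chr2:38339031-38339280 of GRCm38 on the plus strand, is given because *Lhx2* leaned opposite to *Isl1*.
Lhx2 promoter: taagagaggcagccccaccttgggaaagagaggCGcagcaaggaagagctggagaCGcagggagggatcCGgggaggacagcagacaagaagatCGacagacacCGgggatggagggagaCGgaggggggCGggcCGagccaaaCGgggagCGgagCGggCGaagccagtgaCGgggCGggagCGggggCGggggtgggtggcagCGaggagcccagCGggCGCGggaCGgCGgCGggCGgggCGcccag
It holds 25 CG dinucleotides in 250 bases.

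*Lhx9* (ENSMUSG00000019230, chromosome 1, 138825186 to 138848577), the paralogue of *Lhx2* with a known role in thalamus, hypothalamus and gonad, had 14.9 and 18.0 CPM in WT and 15.2 and 11.7 CPM in KO. The first KO library lay between the WT libraries. Its log2FC was -0.30 with a standard error of 0.25 (95% interval -0.87 to 0.28, edgeR adjusted p = 0.524), and 0.18 with the pan-neuronal scaling. Per length, *Lhx2* transcripts outnumbered those of *Lhx9* by 4.39 and 3.54 to 1 in the WT libraries and by 5.89 and 7.38 to 1 in the KO libraries. The ratios of the genotypes did not overlap. With 2 libraries against 2, an exact permutation test cannot give a two-sided p below 0.333, and this was its value.

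*Lhx6* (ENSMUSG00000026890, chromosome 2, 36081953 to 36105408) is the factor that directs interneurons of the medial ganglionic eminence and POA towards their cortical fates. It had 45.3 and 49.4 CPM in WT and 44.1 and 56.1 CPM in KO. The WT libraries fell between the KO libraries. Its log2FC was 0.08 with a standard error of 0.17 (edgeR adjusted p = 0.825), with a 95% interval from -0.32 to 0.48, so that any change beyond 1.39-fold up or 0.803-fold down is outside that interval. The change was 0.56 with the pan-neuronal scaling (edgeR adjusted p = 0.0459), under which 25.6% of all genes were called higher. The sign of the change turned after correcting for exonic length and GC. The *Gm27953* gene, annotated as a miscellaneous RNA on the same strand, covers 2.16% of the exonic bases of *Lhx6*.

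Interneuron genes of the LHX6 programme were measured in the same libraries. Of the 12 genes listed, which include the regulators *Nkx2-1*, *Sox6* and *Satb1*, the neuropeptides *Sst* and *Npy* and the chemokine receptors *Cxcr4* and *Ackr3*, 0 passed the edgeR test, DESeq2 or limma-voom, and at an unadjusted p under 0.05 there were also 0. After correcting for exonic length and GC, 1 was called higher and 1 lower. Their log2FC values ran from -0.53 (*Npy*) to 0.30 (*Sox6*), with a median of -0.11. Their summed level was 800 and 894 CPM in WT and 803 and 824 CPM in KO. With the pan-neuronal scaling 2 of the 12 were called higher, against 25.6% of all genes. Their median was then 0.37, with the median of all genes moved by 0.481.

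*Lhx8* (ENSMUSG00000096225, chromosome 3, 154306294 to 154330659), which drives the cholinergic fate together with ISL1, was low. The WT libraries held 39 and 45 counts and the KO libraries 51 and 62, which are 4.84 and 4.41 CPM in WT and 6.06 and 6.83 CPM in KO. KO was the higher genotype without overlap. The log2FC of *Lhx8* was 0.48 with a standard error of 0.33 (edgeR adjusted p = 0.424), and its 95% interval from -0.27 to 1.23 allows a change in either direction. Per length, *Lhx6* exceeded *Lhx8* by 4.93 and 5.90 to 1 in WT and by 3.83 and 4.33 to 1 in KO, without overlap between genotypes (exact permutation two-sided p = 0.333, the smallest possible). The cholinergic genes were scarce. *Chat*, which encodes the enzyme that makes acetylcholine, had 0 to 9 counts in any library, and 4 of the 7 genes were abundant enough to be tested. None of these passed (edgeR, DESeq2 and limma-voom each called 0, and 1 had an unadjusted p under 0.05), with a median log2FC of -0.44, or 0.04 with the pan-neuronal scaling.

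*Lmo4* (ENSMUSG00000028266, chromosome 3, 144188530 to 144205220), the LIM-only gene, had 134 and 140 CPM in WT and 110.0 and 109 CPM in KO. The libraries of each genotype were close to each other and the KO libraries were the lower ones. The log2FC of *Lmo4* was -0.33 (standard error 0.14, 95% interval -0.65 to -0.01), with an unadjusted p of 0.0432 and an edgeR adjusted p of 0.204. After correcting for exonic length and GC it was -0.36 (adjusted p = 0.0297), and with the pan-neuronal scaling it was 0.15 (adjusted p = 0.4497).

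*Ldb1* (ENSMUSG00000025223, chromosome 19, 46031570 to 46045214), the main cofactor gene, was the most abundant of the 10. It had 298 and 356 CPM in WT and 281 and 313 CPM in KO, and the genotypes overlapped. Its log2FC was -0.14 with a standard error of 0.15 (95% interval -0.49 to 0.20, edgeR adjusted p = 0.619), and 0.34 with the pan-neuronal scaling. The protein-coding gene *Pprc1* on the opposite strand covers 3.84% of its exonic bases.

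*Ldb2* (ENSMUSG00000039706, chromosome 5, 44472132 to 44799680), its paralogue, had 20.9 and 24.4 CPM in WT and 16.2 and 14.8 CPM in KO, with KO below WT throughout. The log2FC of *Ldb2* was -0.55 (standard error 0.21, 95% interval -1.03 to -0.07, unadjusted p = 0.0301, edgeR adjusted p = 0.168). When WT replicate 1 was left out, which takes the spread from the KO libraries alone, the value was -0.67 (edgeR adjusted p = 0.0188), and it was -0.07 with the pan-neuronal scaling.

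**Figure D2:**
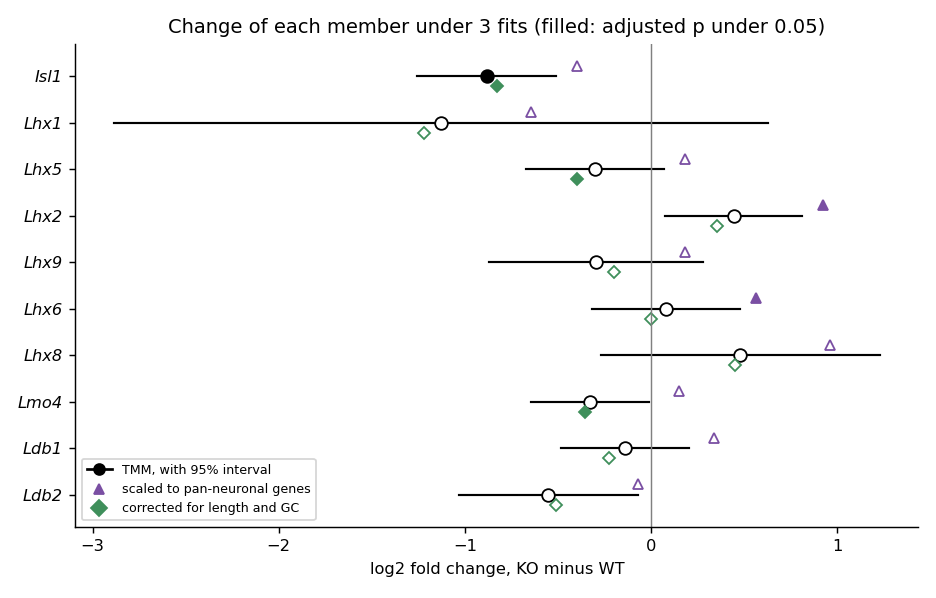
Log2FC values (KO minus WT) of the 10 genes, with 95% intervals for the TMM-scaled edgeR fit (circles), after scaling to pan-neuronal genes (triangles) and after correcting for exonic length and GC (diamonds). Filled symbols passed an adjusted p of 0.05, which in the TMM-scaled fit was *Isl1* alone, and the triangles lie to the right of the circles by about the 0.481 that this scaling adds to all genes.

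Compared per length, the genes spanned a wide range of levels in the WT libraries. In TPM (counts divided by exonic length and scaled to a common sum), *Ldb1* led with 214 ± 56.9 (SD, n = 2), followed by *Lmo4* with 117 ± 20.3 and *Lhx5* with 99.1 ± 28.4. The ranges of *Lmo4* and *Lhx5* overlapped across libraries. Within a library *Lmo4* was the higher, with 102.3 against 79.03 TPM in WT replicate 1 and 131 against 119.2 TPM in WT replicate 2. *Isl1* came next with 55.0 ± 0.0302 TPM and *Lhx6* with 29.6 ± 6.00 TPM. TPM carries no TMM factor, so that spreads between libraries differ from those in CPM. The WT libraries of *Isl1*, almost equal in TPM, had 81.1 and 66.1 CPM. *Ldb2* with 20.4 ± 5.14 TPM and *Lhx2* with 20.3 ± 2.52 TPM overlapped, as did *Lhx8* with 5.43 ± 0.419 TPM and *Lhx9* with 5.23 ± 1.44 TPM. *Lhx1* was last with 1.5 ± 1.00 TPM, far below its paralogue *Lhx5*. In KO the order was the same except that *Isl1*, at 33.2 ± 0.746 TPM, stood beside *Lhx6* at 34.4 ± 6.27 TPM with overlapping ranges, and *Lhx2*, at 30.6 ± 0.447 TPM, moved above *Ldb2* at 15.3 ± 0.779 TPM. With the longest transcript in place of all exons as the length, 6 of the 10 WT ranks stayed, and the neighbours *Ldb2* and *Lhx2*, and *Lhx8* and *Lhx9*, changed places. The genotypes of *Lmo4* and *Lhx5*, which did not overlap in CPM, overlapped in TPM.

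**Figure D3:**
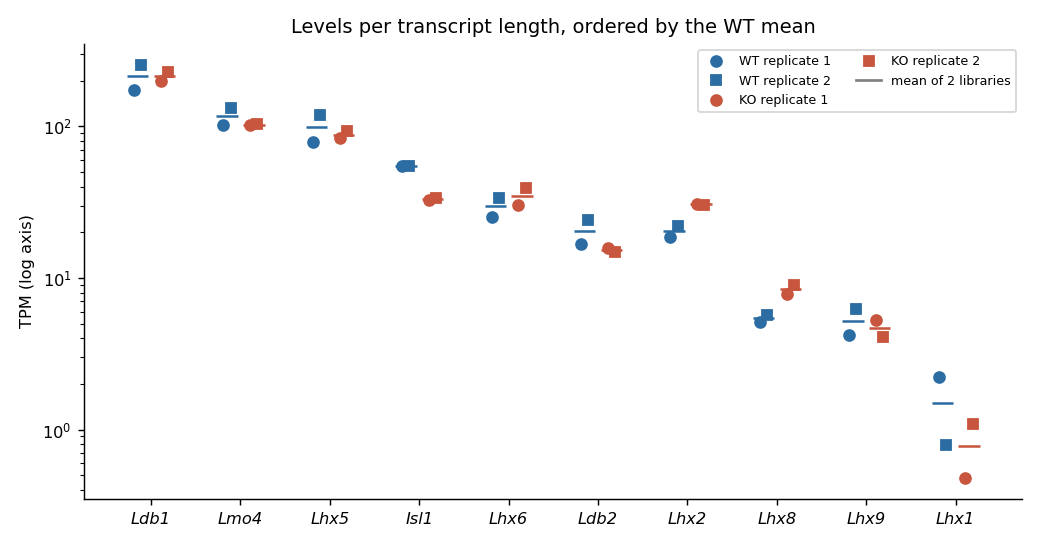
Levels per transcript length in TPM on a log axis, ordered by the WT mean, with blue for WT, red for KO, circles and squares for replicates 1 and 2, and lines for the means of 2 libraries. *Ldb1* leads and *Lhx1* is last in both genotypes, and *Isl1* moves down from 55.0 TPM in WT to 33.2 TPM in KO. TPM carries no TMM factor, so that distances between libraries differ from those in CPM.

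The shares of the 7 LIM-homeobox genes in their summed TPM show which of them carried the family. *Lhx5* made up 45.4% ± 5.21 in WT and 44.0% ± 0.262 in KO (SD, n = 2). With all exons as the length this was the largest share in each library. *Lhx5* has 2689 bases by all exons or by the longest transcript, whereas *Isl1* has 3959 and 2516, so that the shares depend on this choice. *Isl1* had 29.0% and 22.6% in the WT libraries and 17.1% and 16.1% in the KO libraries, without overlap. *Lhx2* had 9.78% and 9.10% in WT and 16.2% and 14.4% in KO, and *Lhx8* had 2.71% and 2.36% in WT and 4.11% and 4.29% in KO, both without overlap. *Lhx6* had 13.4% and 13.9% in WT and 15.7% and 18.5% in KO, again without overlap, although the TPM of *Lhx6* itself overlapped. Shares of 1 sum are tied to each other, so that a lower *Isl1* raises the shares of the other genes. Each of these 4 shares gave an exact permutation two-sided p of 0.333, the smallest that 4 libraries allow. The sum itself, which like all TPM here carries no TMM factor, was 190 and 243 TPM in WT and 191 and 210 TPM in KO.

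The balance between LIM proteins and their cofactors is of interest because LDB proteins are shared. Per transcript of *Ldb1* and *Ldb2* together, the LIM-homeobox genes had 0.993 and 0.872 transcripts in WT and 0.884 and 0.871 in KO. *Lmo4* had 0.536 and 0.470 transcripts per LDB transcript in WT and 0.472 and 0.426 in KO. Both ratios overlapped between genotypes (exact permutation two-sided p = 0.667 for each). *Ldb1* supplied 91.2% and 91.4% of the LDB transcripts in WT and 92.7% and 93.9% in KO, which did not overlap (exact permutation two-sided p = 0.333). All ratios per length given here take all exons as the length. This is 3530 bases for *Lmo4* (1669 in its longest transcript) and 4606 for *Ldb1* (3133). The sizes of the ratios depend on this choice.

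Other genes of the same molecular family were also measured. The remaining LIM-homeobox genes *Lhx3*, *Lhx4*, *Isl2*, *Lmx1a* and *Lmx1b* were at or near 0, with at most 7 counts in any library, and none was tested. Of the LIM-only genes, *Lmo3* had 107 ± 14.1 CPM in WT and 74.3 ± 3.91 CPM in KO (SD, n = 2), a log2FC of -0.53 (edgeR adjusted p = 0.0917). *Lmo1* and *Lmo2* had log2FC values of -0.18 and -0.29, so that 0 of these 3 genes passed (1 at an unadjusted p under 0.05, and 0 with DESeq2 or limma-voom). The single-stranded DNA binding proteins of the SSBP family stabilize LDB proteins, and RLIM is a ubiquitin ligase that degrades them. Of *Ssbp2*, *Ssbp3*, *Ssbp4* and *Rlim*, 0 passed (2 at an unadjusted p under 0.05, and 0 with DESeq2 or limma-voom). *Rlim* had 190 ± 45.4 CPM in WT and 134 ± 17.1 CPM in KO (log2FC -0.50, edgeR adjusted p = 0.177). After correcting for exonic length and GC, 2 of these 4 partners were called lower and 0 of the 3 LIM-only genes. The medians were -0.29 for the LIM-only genes and -0.31 for these partners, and with the pan-neuronal scaling they were 0.19 and 0.17.

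The lower values of several members stood beside lower neuronal genes. The 15 pan-neuronal genes had a median log2FC of -0.48, and *Elavl4* (-0.81), *Syt1* (-0.73) and *Stmn2* (-0.57), which encode an RNA-binding protein, a synaptic vesicle protein and a microtubule regulator, fell. DESeq2 called 8 of the 15, all lower. The 7 GABAergic genes, among them *Gad1*, *Gad2* and *Dlx1*, had a median of -0.29 and 0 passed (2 at an unadjusted p under 0.05, and 0 with DESeq2 or limma-voom), while 2 were called lower after correcting for exonic length and GC. With the pan-neuronal scaling this median was 0.19. Of the 10 members, the log2FC of *Isl1* (-0.88), *Lhx1* (-1.13) and *Ldb2* (-0.55) was below the pan-neuronal median, and *Lhx2*, *Lhx6* and *Lhx8* were above 0.

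**Figure D4:**
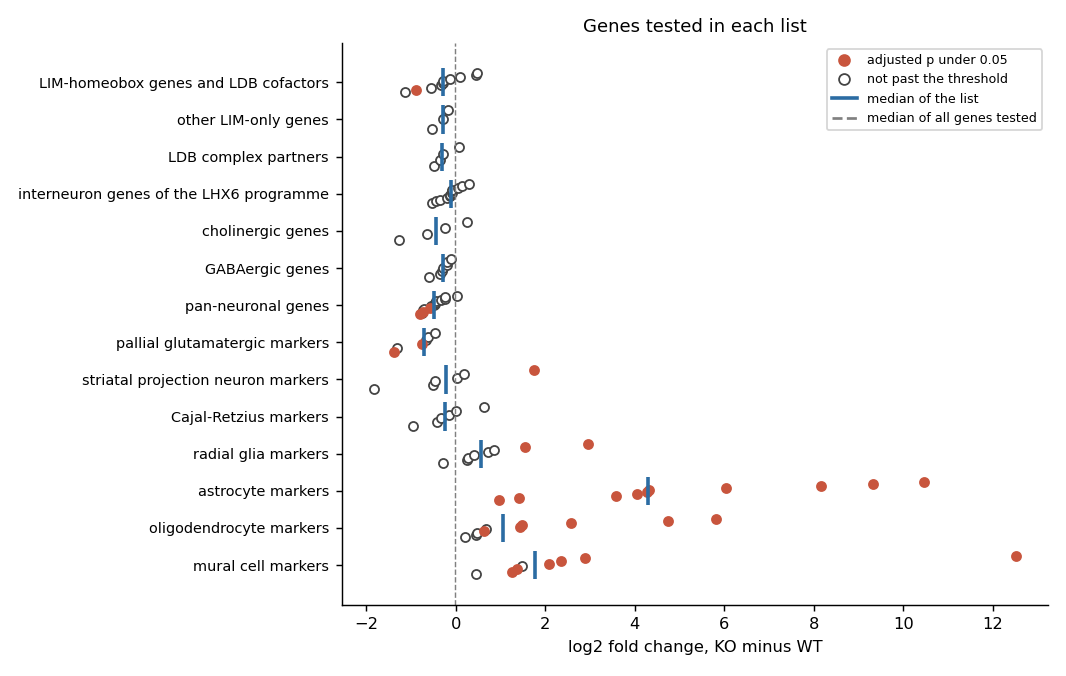
Log2FC values (KO minus WT) of the tested genes of the lists shown, with filled red points for an adjusted p under 0.05, blue bars for list medians and a dashed line for the median of all 16832 genes tested. The members run from -1.13 to 0.48 with *Isl1* as the filled point, while all 10 astrocyte markers lie to its right. *Gfap*, *Gjb6* and *Acta2* had at most 3 counts in each WT library, so that their positions depend on the prior count of the fit.

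The promoter windows of the members, from 250 bases before to 50 bases after each RefSeq start, were compared with all 32841 windows of that length. Windows were found for 8 of the 10 genes, 15 in all, and none for *Lhx5* and *Ldb2*. The member windows held a median of 29 CG dinucleotides, against 7 over all windows. The first windows of *Lmo4* (52), *Ldb1* (41), *Isl1* (37), *Lhx2* (34) and *Lhx1* (31) held more than 30 CG dinucleotides, that of *Lhx6* held 16 and that of *Lhx8* held 4. The single window of *Lhx9* (6) lies inside the annotated gene and not at its outermost start. At least as many CG dinucleotides as in *Isl1* were found in 5.58% of all windows, and at least as many as in *Lhx1* in 10.6%. Of these genes only *Isl1* was called between genotypes, and a relation of CG content to expression was not tested. The core letters bound by many homeodomains, TAAT on either strand (TAAT or ATTA), occurred in 6 of the 15 windows and in 58.0% of all windows. The palindrome TAATTA, which contains both, occurred in 0 of the 15 and in 5.29% of all windows.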

How the data were processed

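The authors deposited raw read counts for each Ensembl gene, 1 list for each of 4 libraries (2 WT, 2 KO), without normalization. The submitters' processing notes name CASAVA 1.8.2, STAR 2.5.2a, featureCounts 1.5.0-p1 and mm10/GRCm38, while the annotation release and strand setting are not given in the sources used here. Without strand information, reads of antisense genes cannot be told apart where exons overlap. Genotype and replicate number were taken from the sample titles.

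Symbols, positions, exonic lengths and GC content came from GENCODE M21 (GRCm38), which matched 55480 of 55573 identifiers. Genes passing edgeR's expression filter (16832) were normalized with TMM to CPM and tested in R 4.3.3 by the quasi-likelihood method of edgeR 4.0.16 (limma 3.58.1), genotype being the only term, and p-values were adjusted over all genes by Benjamini-Hochberg. Standard errors came from the test statistic. The counts of the 2 WT libraries (chi-square per degree of freedom 39.8) and of the 2 KO libraries (3.54) differed by more than sampling noise, so that no library was treated as deposited again. This does not show that the libraries are independent samples. Promoter sequences are from RefSeq (GRCm38.p6).

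All 10 members, *Dnmt1* and genes of the listed groups needed to describe them were named. The groups were other LIM-homeobox and LIM-only genes, LDB partners, interneuron, cholinergic, GABAergic, pan-neuronal and preoptic genes, survival genes, and markers of striatal, pallial, Cajal-Retzius, thalamic, radial glial, astrocyte, oligodendrocyte, mural, endothelial, microglial and choroid plexus cells. Some genes of these groups are not reported here individually. Members and lists were chosen with earlier results of these data known. Alternatives were DESeq2 1.42.0, limma-voom, other size factors including ones from the pan-neuronal genes, other filters, a block for the replicate number, an offset correcting for exonic length and GC, and leaving out each library. The procedures were tested on simulated data.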

Additional observations from a re-analysis of the deposited data

How the results depend on the processing

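*Isl1* kept its direction in all 11 alternative fits with 4 libraries and passed in 10 of them, except with the pan-neuronal scaling. The count of members called was 2 with that scaling (*Lhx2* and *Lhx6*, both higher, where 25.8% of all genes were called), 3 after the correction for length and GC content alone or with the replicate block (*Lhx5*, *Isl1* and *Lmo4*, lower, where 17% and 21.1% were called), and 0 to 3 when a library was left out. It was 0 without KO replicate 1 or without KO replicate 2 (edgeR, 1 member at an unadjusted p under 0.05 in each), and 3 without WT replicate 1, where 21.3% of all genes were called. Without KO replicate 1 or without KO replicate 2, a smaller share of all genes was called than in the main fit with 4 libraries (7.90%). Against so low a share, 0 of 10 members does not set the members apart from other genes. Fits without a WT library take their spread from the KO libraries alone.

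Directions reversed with the pan-neuronal scaling for *Ldb1* (0.34), *Lhx5* (0.18), *Lhx9* (0.18) and *Lmo4* (0.15). *Lhx6* reversed to -0.00102 after the correction, to -0.00317 with the correction and the replicate block, and to -0.0983 without KO replicate 2, with 0.2551 as the highest value when a library was left out.

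Over all genes, 1329 were called (92.8% higher), 4350 with the pan-neuronal scaling (99.2% higher), 2363 without a filter (75.8%), 883 with at least 10 counts in every library, 2856 after the correction (64.6%) and 3558 with correction and block (59.9%). DESeq2 gave 82.0% higher. Leaving out a library gave 951 (KO replicate 2) to 4209 genes (WT replicate 2, 48.2% higher), with 3878 (66.5% higher) without WT replicate 1. The causes were not tested. Library size as the only scaling moved the median of all genes by 0.110.

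*Dnmt1* passed with DESeq2 (-0.577), limma-voom (-0.558), relative log expression factors (-0.569), no filter (-0.555), the correction (-0.625) and the correction with the block (-0.627), but not with the pan-neuronal scaling (-0.0789, adjusted p = 0.7098), library size only (0.151), upper quartile factors (0.0645) or at least 10 counts (0.0739). Leaving out a library gave -0.67 to -0.46, past the threshold without either WT library and not without KO replicate 1 (adjusted p = 0.386) or KO replicate 2 (0.521). The order of levels kept 6 of 10 ranks with longest transcripts.

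Under a replicate block, 2244 genes were called (72.4% higher), 1 of the 10 members was called, again *Isl1* (-0.88, adjusted p = 0.00153), and *Dnmt1* passed (-0.556), as did *Lmo3* (adjusted p = 0.0299), *Rlim* (0.0290), *Bcl11b* (0.0203) and *Nhlh2* (0.00441), all lower. Correction and block, each alone, called 5 pallial genes lower, 11 and 8 pan-neuronal genes lower, 5 and 4 radial glia markers higher and 3 microglial markers higher. Same-numbered libraries deviated together across genes with a correlation of 0.159, and the labels give no shared origin, so that they share only a number. For *Lhx1*, at 5 to 27 counts, both counting error and a spread between WT libraries beyond it limit the precision.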

Other observations

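Genes of neighbouring cell populations that share LIM-homeobox factors gave further values. Of the 6 Cajal-Retzius markers, which mark early neurons that use LHX1 and LHX5, 0 passed the edgeR test (2 at an unadjusted p under 0.05, 1 with DESeq2 and 0 with limma-voom). After correcting for exonic length and GC, 2 of the 6 were called lower, and with the replicate number as a block 1, *Nhlh2*, was. Their sum was 442 and 468 CPM in WT and 362 and 385 CPM in KO, with a median log2 fold change of -0.24, or 0.24 with the pan-neuronal scaling. *Nhlh2*, a neuronal transcription factor, was closest to the threshold among them (-0.97, edgeR adjusted p = 0.0519). Of the 4 thalamic and habenular markers tested, 1 passed. *Tcf7l2*, a Wnt effector of the thalamus that is also present in oligodendrocytes, rose from 8.91 ± 1.10 CPM in WT to 21.7 ± 1.42 CPM in KO (SD, n = 2). *Slc17a6*, which encodes a vesicular glutamate transporter and was the most abundant of the list, had 55.7 ± 10.2 CPM in WT and 37.1 ± 1.47 CPM in KO (log2 scale -0.59, edgeR adjusted p = 0.0951). It passed with the replicate number as a block (adjusted p = 0.0371). The list summed to 61.6 to 79.2 CPM in WT and 63.0 to 66.7 CPM in KO.

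Of the 5 preoptic domain factors tested, *Nkx6-2* rose, from 1 and 3 counts in WT to 49 and 42 counts in KO. *Hmx2*, the neighbour and paralogue of *Hmx3*, had a log2FC (KO minus WT) of -0.36 (edgeR adjusted p = 0.189). Of the survival genes that the study names for LHX1, *Bcl6* rose by 1.27 on the log2 scale (edgeR adjusted p = 0.00482) and *Bcl2* had a log2 fold change of 0.13 (adjusted p = 0.759), in libraries in which *Lhx1* itself was not called. Of the endothelial markers 1 of 6 tested, the glucose transporter gene *Slc2a1*, rose. The other 7, left after the values were seen, summed to 17.5 and 16.4 CPM in WT and 17.1 and 19.4 CPM in KO, with KO libraries below WT libraries for *Cldn5* and *Kdr* and above them for *Flt1*, *Tek* and *Ly6c1*. Of the microglial markers 1 of 7 rose (DESeq2 and limma-voom each called 0), and of the 3 choroid plexus markers tested 1, *Ttr*, fell.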
